A study of Caenorhabditis elegans with 2 samples.

Results

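The 7 genes sec-61.G, hsp-3, hsp-4, xbp-1, ire-1, pek-1 and atf-6 encode parts of the machinery that moves proteins into the endoplasmic reticulum, folds them there and senses when they do not fold. They were chosen by name, with earlier results of these data in view, out of 19973 protein-coding genes on the 6 nuclear chromosomes of Caenorhabditis elegans. Recovery of the tagged homeodomain protein CEH-82 was read at their gene starts, in whole L3 larvae. Both samples belong to 1 group and are labelled biological replicates 1 and 2. The worms were of strain OP212, labelled unc-119(ed3) III; ddEx58, of mixed sex and of unknown age within the stage, with an insertion that targets ceh-82 and an eGFP-ceh-82 fusion as the target of the immunoprecipitation. Both replicates carry the transgene and the unc-119 allele, the labels name no promoter for the fusion, and no other genotype, treatment or time was analysed, so no condition was compared with another.

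Secreted and membrane proteins enter the endoplasmic reticulum through the Sec61 channel, whose small gamma subunit is the product of sec-61.G. Inside, the Hsp70 chaperone BiP binds unfolded chains; C. elegans has a pair of BiP genes, hsp-3 and hsp-4. When unfolded protein builds up, the membrane kinase IRE-1 starts the splicing of xbp-1 mRNA, which then encodes an active transcription factor, PEK-1 (the PERK kinase) phosphorylates the translation initiation factor eIF2alpha, and ATF-6 is, in mammals, cut from the membrane to act as a transcription factor. Homeodomain proteins such as CEH-82 bind DNA and commonly recognise a core of TAAT.

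Peaks were read in 4 lists on the ce11 build. A list of 748 reproducible peaks was made by the authors from both replicates, and candidate lists, which mix peaks with background, held 30000 entries for the pooled replicates, 30000 for replicate 1 and 22611 for replicate 2. The signal value of an entry is the authors' own and its scale is not stated, so it ranks entries within a list only. A gene had an entry when a summit lay from 500 bp upstream to 100 bp downstream of its annotated start. All 748 reproducible peaks stood in the pooled list with the same position and signal, and they were exactly its 748 strongest entries. The lowest had a signal of 26.92, and the next pooled entry 26.88. The depth of the libraries is unknown.

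The stretches below carry the results that follow. They are printed 5′ to 3′ on the strand of each gene, from the RefSeq copy of WBcel235, the assembly of ce11, and they end before the annotated gene start. Capitals mark any match, on either strand, to the 11 words searched, which overlap where their letters allow it. They are the XBP-1 and ATF6 core TGACGTG, the stress element's end CCACG, the box called CCAAT, the homeodomain core TAAT, the TATA box as TATAAA, the splice acceptor word TTTCAG, and the words CTGCGTC, then GTCTC, then TGCGC, also GAGAGAG and finally GCGCGC, which were taken up because they were frequent at summits of the whole series. The first 5 stretches hold the pooled summit, and that of xbp-1 stops short because its summit lay 5 bp before the gene start. The stretch of hsp-3 was lengthened to take in its TGACGTG word, and that of hsp-4, which had no summit, is centred on the same word. The stretches lie at chrV:10897331-10897431 for sec-61.G, chrX:6092125-6092260 for hsp-3, chrIII:4193754-4193808 for xbp-1, chrX:12480621-12480721 for atf-6, chrII:8124926-8125026 for ire-1 and chrII:7352675-7352775 for hsp-4. The genes xbp-1 and atf-6 are on the plus strand and the others on the minus strand.
sec-61.G: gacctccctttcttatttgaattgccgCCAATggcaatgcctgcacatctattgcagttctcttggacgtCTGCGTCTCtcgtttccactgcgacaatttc
hsp-3: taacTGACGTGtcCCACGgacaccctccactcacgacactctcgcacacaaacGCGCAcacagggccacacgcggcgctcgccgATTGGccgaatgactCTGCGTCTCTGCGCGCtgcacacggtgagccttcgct
xbp-1: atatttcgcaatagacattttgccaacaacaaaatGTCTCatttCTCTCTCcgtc
atf-6: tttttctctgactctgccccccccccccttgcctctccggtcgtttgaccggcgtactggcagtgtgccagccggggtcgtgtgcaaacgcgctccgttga
ire-1: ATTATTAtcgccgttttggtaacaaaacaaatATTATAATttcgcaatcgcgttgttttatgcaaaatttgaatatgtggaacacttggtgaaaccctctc
hsp-4: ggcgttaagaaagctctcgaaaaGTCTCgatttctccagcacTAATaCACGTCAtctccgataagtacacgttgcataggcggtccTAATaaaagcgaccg

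Of the 7 genes, sec-61.G, hsp-3 and xbp-1 had a reproducible peak at the gene start. This is 3 of 7, where 2.39% of all protein-coding genes had one; the genes were picked with these peaks in view, so nothing is read from that difference. In the pooled candidate list 5 of 7 had an entry, against 25.5% of all protein-coding genes. In replicate 1 the same 5 genes had one, against 24.6%, and in replicate 2 again these 5, against 19.0%. The genes without an entry in any candidate list were hsp-4 and pek-1, a state shared by 63.4% of all protein-coding genes. The values were chosen by the rule itself and are given as a description, with no test.

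**Figure D1:**
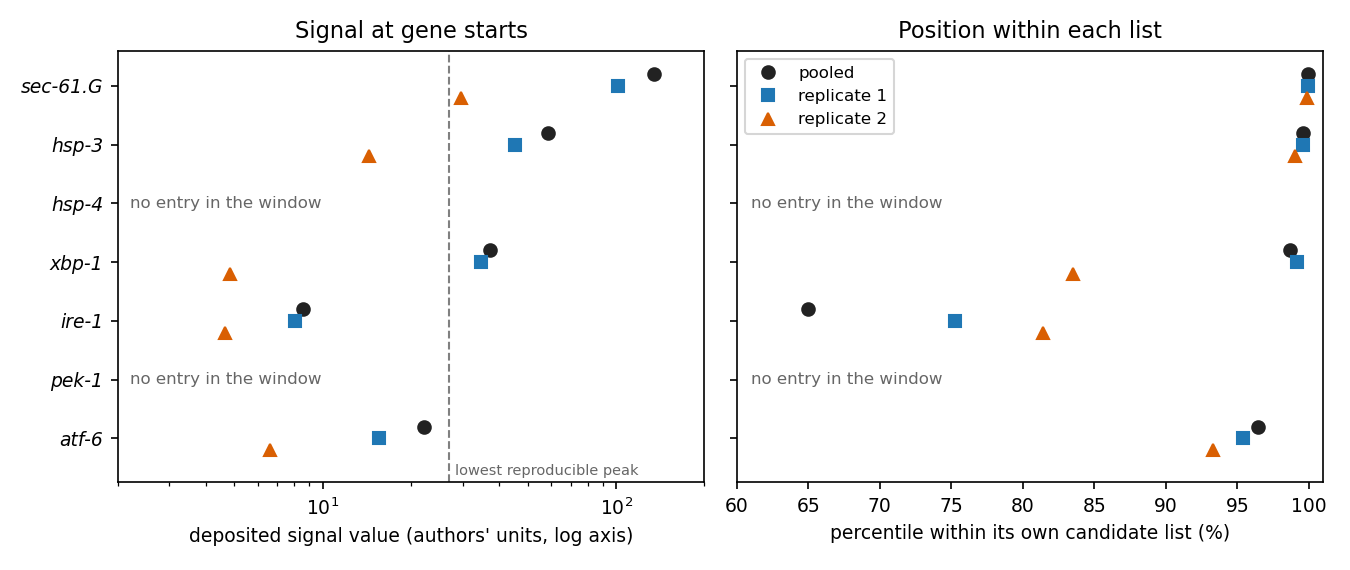
Deposited signal value of the strongest entry at each gene start (left, log axis, authors' units) and its percentile within its own candidate list (right) for the pooled list, replicate 1 and replicate 2, with 1 point per gene and list and no error bars, since each list gives 1 value. sec-61.G and hsp-3 lie above the 99th percentile in all 3 lists, xbp-1 falls to 83.5 in replicate 2, and hsp-4 and pek-1 have no entry. The dashed line is the lowest signal of a reproducible peak, 26.9, which applies to the pooled values.

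The translocation gene sec-61.G (WBGene00001303, V, 10896658 to 10897143, minus strand) had the strongest entry of the 7. Its pooled signal was 134.7, rank 26 of 30000. Replicate 1 gave 101.9 (rank 24) and replicate 2 gave 29.6 (rank 40). The gene stood high in both replicates, and the summits lay 238 bp (pooled), 237 bp (replicate 1) and 232 bp (replicate 2) upstream of the start. The start codon lies 8 bp past that start, and the splice acceptor word TTTCAG lies at -6 to -1 bp. The distances are therefore from the annotated start only. The pooled peak, from 10897272 to 10897461, was 190 bp wide, where 91.4% of reproducible peaks had a width of 340 bp. It was in the window of no other gene. The nearest upstream start is that of F32D8.7, at -1292 bp on the other strand. Among peaks at protein-coding starts, the next stronger was shared by cct-1, a subunit of the cytosolic chaperonin, and mig-5, a Dishevelled protein (137.9), and the next weaker was at eelo-2 (118.9).

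The BiP genes differed: hsp-3 had a peak and hsp-4 had none, where 2.39% of all protein-coding genes had one. hsp-3 (WBGene00002007, X, 6089028 to 6092124, minus strand) had a pooled signal of 58.4 (rank 137). Replicate 1 gave 45.3 (rank 125) and replicate 2 gave 14.4 (rank 225), and the summits lay 55 to 56 bp upstream of the start in all 3 lists. The annotated start matters here, since RefSeq places it 339 bp further downstream. From that start the pooled summit lay at -395 bp, still inside the window, and it lay 417 bp upstream of the first annotated start codon. The divergent neighbour C15H9.5 starts at -1176 bp and its window does not reach this peak. Among peaks at protein-coding starts, those nearest in rank were shared by dpm-3 and the ribosomal gene rps-23 (59.5, above) and by Y71G12A.5 and tub-2 (57.2, below).

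hsp-4 (WBGene00002008, II, 7350112 to 7352645, minus strand) is the other BiP gene. No summit lay in its window in the pooled list, in replicate 1 or in replicate 2. The nearest entries were 2276 bp downstream of the start in the pooled list (signal 7.06, rank 16101) and 2336 bp downstream in replicate 1 (4.46, rank 24827), both near the end of the gene. In replicate 2 the nearest was 2768 bp upstream (3.69, rank 7683). The nearest reproducible peak was 50798 bp away. RefSeq places the start of hsp-4 127 bp further downstream, and the window from there held no reproducible peak either. Candidate lists stop at a lowest value, so the absence of an entry says only that nothing above that value was listed.

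The stress transcription factor gene xbp-1 (WBGene00006959, III, 4193809 to 4195358, plus strand) had a peak over its start that the replicates did not rank alike. The pooled signal was 37.2 (rank 405), with the summit 5 bp upstream of the start. Replicate 1 gave 34.6 (rank 253) with a summit at -27 bp. Replicate 2 gave 4.84 (rank 3735) with a summit at +41 bp. The peak at the start was therefore among the 748 strongest entries of replicate 1 but not of replicate 2, where sec-61.G and hsp-3 were. Replicate 2 had stronger entries on both sides of it, at -544 bp (6.22, rank 1844) and at +578 bp (6.72, rank 1453). Among peaks at protein-coding starts, the next stronger in the pooled list was at usp-39 (37.2) and the next weaker at hst-2 (37.0), which had 33.5 in replicate 1 and 2.70 in replicate 2. By the count of the 748 strongest entries, 3 of 7 genes had one in replicate 1 alone, against 2.31% of all protein-coding genes. In replicate 2 alone 2 of 7 had one, against 2.12%.

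Across the 734 reproducible peaks with an entry in both replicates, the ratio of replicate 1 to replicate 2 signal had a median of 2.82 (quartiles 2.04 and 4.13, maximum 18.6). The ratio was 7.14 at xbp-1, higher than at 94.1% of these peaks. It was 3.44 at sec-61.G and 3.15 at hsp-3, inside the quartiles. The replicate lists may be on different scales, so the ratio only places these genes among the other peaks. Only 70 of the 734 peaks had a lower replicate 2 signal than xbp-1.

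**Figure D2:**
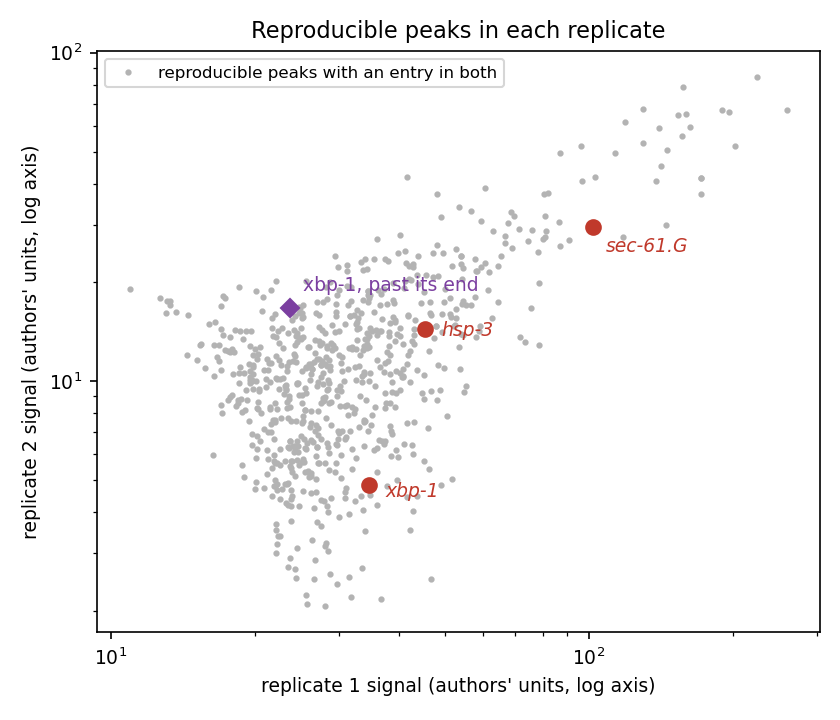
Signal in replicate 1 (x axis) against replicate 2 (y axis), both in the authors' units on log axes, at the 734 reproducible peaks with an entry in both lists, with 1 point per peak and the strongest overlapping entry of each replicate. sec-61.G (101.9 and 29.6) and hsp-3 (45.3 and 14.4) lie within the cloud, xbp-1 (34.6 and 4.84) lies in its lower part, and the peak past the end of xbp-1 (23.7 and 16.8) lies above it in replicate 2 and below it in replicate 1.

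A second reproducible peak stood past the other end of xbp-1, outside every promoter window. It lay from 4195332 to 4195671, with its summit 144 bp past the annotated gene end, and had a pooled signal of 37.3 (rank 400), next to that of the peak at the start. Replicate 1 gave 21.6 (rank 717) at this summit, with a stronger overlapping entry of 23.7 (rank 586) whose summit lay inside the gene at -120 bp from its end, and replicate 2 gave 16.8 (rank 158), so that in replicate 2 the downstream peak stood above the start and in replicate 1 below it. No annotated gene covers the summit. The stretch that reaches 50 bases to each side of it, chrIII:4195452-4195552 on the plus strand, was 35.6% G and C, a value above that of only 5.75% of reproducible summits, and held TAAT on the other strand and none of the other 10 words.
xbp-1 downstream peak: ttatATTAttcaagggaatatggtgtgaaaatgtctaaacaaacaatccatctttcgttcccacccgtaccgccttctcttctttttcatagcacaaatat

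The 3 sensor genes of the response, ire-1, pek-1 and atf-6, had no reproducible peak at their starts. Only 2.39% of all protein-coding genes had one, so nothing is read from that absence. atf-6 (WBGene00000222, X, 12480948 to 12484904, plus strand) came closest. Its pooled signal was 22.2 (rank 1078), with 15.6 (rank 1376) in replicate 1 and 6.62 (rank 1515) in replicate 2. Its start codon is at the annotated gene start itself, and TTTCAG lies at -6 to -1 bp, so distances are from the annotated start only. The summits lay 277 bp upstream in the pooled list and in replicate 1, and 261 bp upstream in replicate 2. Their percentiles within the lists were 96.4, 95.4 and 93.3 in that order, and the deposited −log10 q value of 3.44 in the pooled list equalled that of the reproducible peaks, a value shared by 1367 pooled entries. In replicate 2, atf-6 stood above xbp-1, the reverse of the pooled list and of replicate 1; each list gives a single value, so no spread stands behind that order.

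ire-1 (WBGene00002147, II, 8112243 to 8124910, minus strand) had only a weak entry at its start. The pooled signal was 8.54 (rank 10497), replicate 1 gave 8.03 (rank 7427) and replicate 2 gave 4.64 (rank 4207). Its summits lay at -66 bp (pooled), -72 bp (replicate 1) and -215 bp (replicate 2), so they were not at 1 place. A stronger entry lay further out in every list, at -1516 bp in the pooled list (24.6, rank 891) and in replicate 1 (15.9, rank 1325) and at -1500 bp in replicate 2 (7.59, rank 1012). That entry was in no promoter window, and its nearest start was that of the noncoding gene C41C4.14, from which the pooled summit lay at -640 bp.

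pek-1 (WBGene00003970, X, 11410176 to 11414887, minus strand) had no entry in the window but missed it narrowly. The pooled list had a summit 119 bp downstream of the start (5.61, rank 24789) and replicate 1 had one 127 bp downstream (6.82, rank 11131), where the window ends at 100 bp. Replicate 2 had none near the start, its nearest being 1429 bp upstream (4.26, rank 5356). These entries stood at percentiles of 17.4 (pooled), 62.9 (replicate 1) and 76.3 (replicate 2) in their lists, and the nearest reproducible peak was 107392 bp away.

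**Figure D3:**
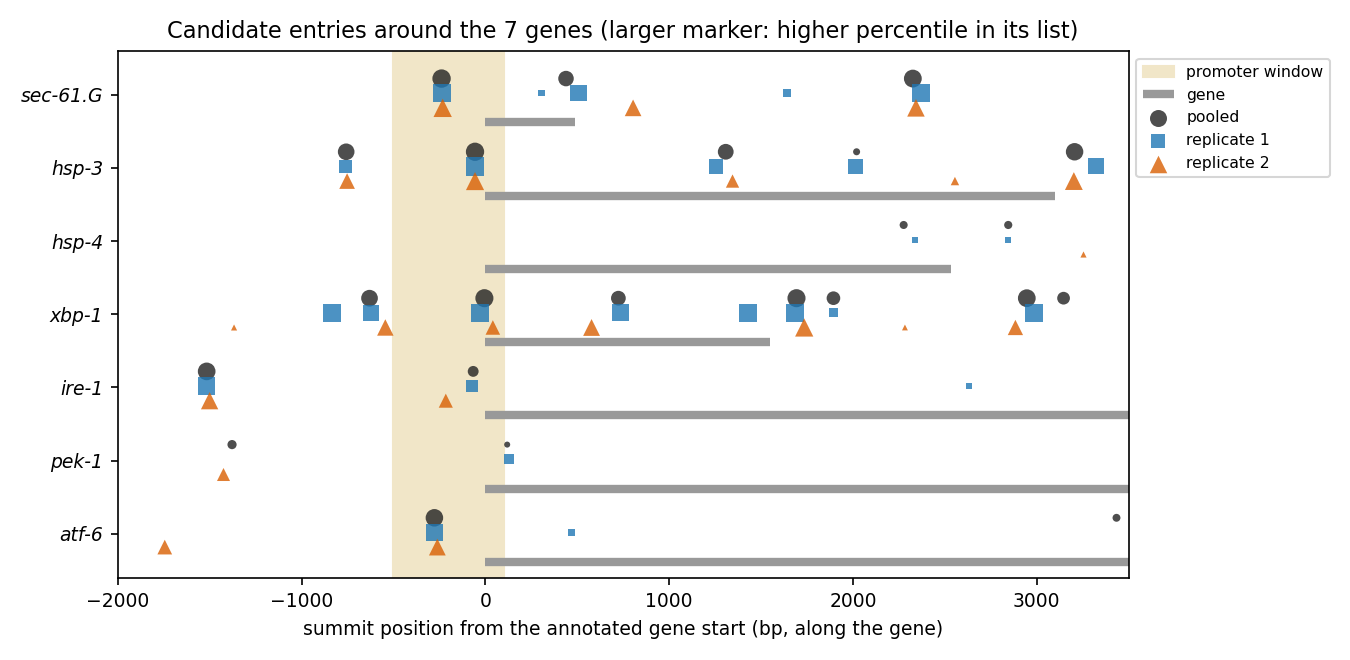
Summits of candidate entries in the pooled list, replicate 1 and replicate 2 by distance from the annotated gene start in bp (negative upstream), with larger markers for a higher percentile in the list; grey bars are the genes, cut off at the edge of the plot. Summits of the 3 lists lie close together at sec-61.G, hsp-3 and atf-6, are spread out at xbp-1 and ire-1, and are missing from the shaded window at hsp-4 and pek-1.

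The promoter sequences of sec-61.G and hsp-3 shared a word near the summit. Both held CTGCGTC overlapping GTCTC as CTGCGTCTC, in the same orientation to the gene, with the centre of CTGCGTC 23 bp downstream of the pooled summit at sec-61.G and 22 bp at hsp-3. CTGCGTC was in 13.5% of the summit stretches of reproducible peaks, which reach 50 bases to each side of a summit, and in 7.23% of all protein-coding promoter windows. The joined word CTGCGTCTC, chosen after these matches were seen, was in 10.96% of summit stretches and in 4.60% of windows, and no other of the 7 windows held it. A CCAAT box on either strand also lay close to both summits, its centre 21 bp upstream at sec-61.G and 6 bp downstream at hsp-3, where 15.1% of summit stretches held CCAAT. These matches describe the letters only.

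The stress response word TGACGTG, the core of sites bound by XBP1 and ATF6 in mammals, was found in the windows of both BiP genes, hsp-3 at -132 to -126 bp, read along the gene, and hsp-4 at -83 to -77 bp, read on the other strand. It was in 5.41% of all protein-coding windows and in none of the other 5. At hsp-3 its centre lay 73 bp upstream of the pooled summit, outside the summit stretch. The letters CCAAT and CCACG at 9 bp apart, the arrangement of the mammalian stress element, were in 0 of the 7 windows and in 0.0551% of all windows. The BiP gene with a peak and the BiP gene without one both carried the word, and whether it bears on the peak was not tested.

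The other summit stretches differed in their letters, and those of atf-6 and ire-1 lie at candidate entries, not at reproducible peaks. At xbp-1 the repeat GAGAGAG, read on the other strand as CTCTCTC, was centred 3 bp upstream of the pooled summit, where 13.8% of summit stretches held it, and GTCTC lay 13 bp upstream. CCACG lay 27 bp downstream of that summit, inside the gene and so outside the printed stretch. The summit stretch of atf-6 held none of the 11 words; it was 64.4% G and C, higher than at 97.7% of reproducible summits, and held a run of 12 C. That of hsp-3 was 65.3% G and C, above 98.4%. The pooled entry of ire-1 was weak, with a −log10 q of 0.465. Its stretch was 32.7% G and C, below all but 3.88% of reproducible summits. It held 4 copies of TAAT, while those of sec-61.G, hsp-3, xbp-1 and atf-6 held 0 copies. TAAT was in 33.6% of reproducible summit stretches. It was in 99.6% of all protein-coding promoter windows, including those of all 7 genes, with 10 copies each at sec-61.G and ire-1.

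The pathway around these genes was read from 6 lists of endoplasmic reticulum genes, of which 73 had an entry in the annotation and 66 were not among the 7. Of these 66, 13 had a reproducible peak (19.7%, exact Clopper-Pearson 95% interval 10.9 to 31.3, which covers counting error only), where 2.39% of all protein-coding genes did. They held 12 distinct peaks, because sec-61.B and trap-3 share one. The pooled list had an entry at 41 of the 66 (62.1%), where 25.5% of all protein-coding genes had one. The median pooled signal, with 0 for genes without an entry, was 7.41 over the 66 and 0 over all protein-coding genes. When only summits between -250 and +50 bp were taken, the count was 7, where 1.57% of all protein-coding genes had a peak. The lists were chosen with earlier results of these data known, so nothing is read from these differences. No set test was made.

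Targeting and translocation genes had a peak at 4 of 12 beside sec-61.G, where 2.39% of all protein-coding genes had one. The divergent genes sec-61.B, for the beta subunit of the channel, and trap-3, for a subunit of the translocon-associated complex, shared a peak of pooled signal 64.4 (rank 109), 467 bp from the first start and 303 bp from the second. Replicate 1 gave 50.4 (rank 96) and replicate 2 gave 7.84 (rank 929). spcs-2, of the signal peptidase, had 45.2, at a peak that also lay in the window of mrg-1. The gene for the channel's large alpha subunit, sec-61.A, had no entry in its window in any list, but a reproducible peak lay within 1000 bp upstream to 200 bp downstream of its start. Without a reproducible peak, dnj-29, for a DnaJ protein, had 24.6 but no entry in replicate 2. trap-2 had 19.4, with entries in both replicates. Among oligosaccharyl transferase genes, which attach sugar chains, dad-1 had a peak of 37.5 that also lay in the window of tre-1, while ostd-1 had 19.7 and ostb-1 had 10.7, neither reproducible.

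Chaperones and folding enzymes had a peak at 2 of 14 beside hsp-3, where 2.39% of all protein-coding genes had one. uggt-1, a glucosyltransferase that marks unfolded glycoproteins, had 64.7 (rank 107), with 45.2 in replicate 1 and 18.7 in replicate 2. The disulfide isomerase gene pdi-2 had 30.5 (rank 585). The calreticulin gene crt-1 had 23.6 and pdi-6 had 18.9, neither reproducible. In the signalling list none of the other 3 genes had a reproducible peak (95% interval 0 to 70.8%), so nothing is read from that count. There atf-4, a factor translated when eIF2alpha is phosphorylated, had a pooled signal of 21.4 (rank 1158), close to atf-6. The replicates ordered these genes differently. Replicate 1 ranked atf-4 at 862 and atf-6 at 1376, and replicate 2 ranked them at 8358 and 1515.

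Genes of endoplasmic reticulum associated degradation, which returns misfolded proteins to the proteasome, had a peak at 3 of 16. Of all protein-coding genes, 2.39% had one. cdc-48.1, an ATPase that pulls proteins out of the membrane, had the strongest of all listed genes at 239 (rank 6). The ubiquitin-conjugating enzyme genes ubc-7 and ubc-6 had 41.6 and 31.5, the second in a window shared with aka-1. ubxn-4 had 9.11 and sel-1 had 8.08, neither reproducible. By the 748 strongest entries of single replicates, replicate 1 had 13 of the 66 genes, against 2.31% of all protein-coding genes. There ubc-6 was lost and dnj-29 gained. Replicate 2 had 12, against 2.12%, with sec-61.B and trap-3 among those lost and ostd-1 and copb-2, of the COPI coat, gained.

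**Figure D4:**
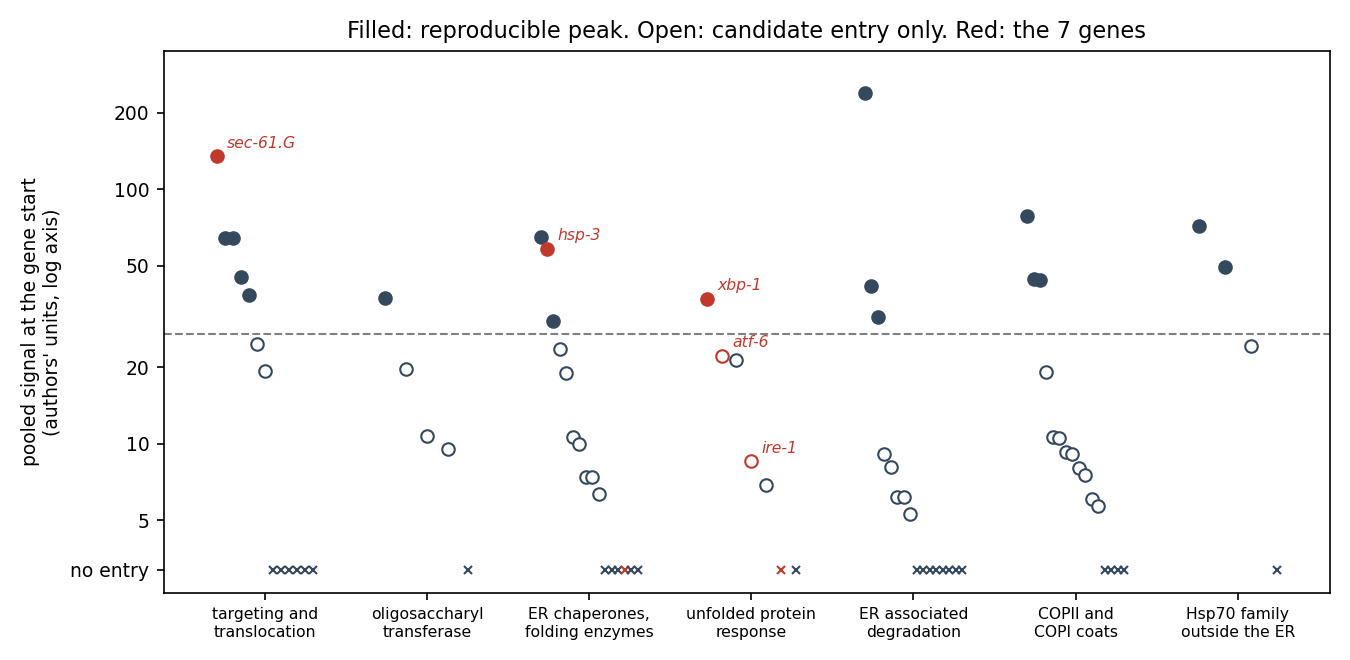
Pooled signal of the strongest entry at the start of each listed gene (y axis, log, authors' units) by gene list (x axis), with 1 point per gene: filled, reproducible peak; open, candidate entry only; cross, no entry in the pooled list; red, the 7 genes. Points above the dashed line at 26.9 are reproducible, and each list holds genes on both sides of it.

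TGACGTG was found at 3 of the 15 distinct reproducible peaks of the 6 lists, those of ubc-6, sar-1 and copz-1, and at 11 of all 748 summit stretches (1.47%). sar-1 encodes the small GTPase of the COPII coat and copz-1 a COPI subunit. None of the peaks of sec-61.G, hsp-3 and xbp-1 is among these 3. CCACG was at 6 of the 15 peaks (40%, against 15.6% of all summit stretches). CTGCGTC was at 4 (26.7% against 13.5%), among them those of sec-61.G, hsp-3 and sec-24.1. TAAT was at 4 of the 15 peaks (26.7%, against 33.6% of all summit stretches). TGCGC was at 5 (33.3% against 34.9%) and GAGAGAG at 1 (6.67% against 13.8%). CCAAT was at 5 (33.3% against 15.1%), GTCTC at 7 (46.7% against 39.7%) and GCGCGC at 3 (20% against 11.4%). The counts are small, and the differences were not tested. The stretches below show the word TGACGTG in capitals on the strand of the gene. They lie in order at chrII:7478854-7478882 and chrII:7478882-7478910 for the pair of copies at ubc-6, chrIV:4513635-4513663 for sar-1 and chrII:10872791-10872819 for copz-1. The word was centred 25 bp upstream and 3 bp downstream of the summit at ubc-6, 21 bp downstream at sar-1 and 27 bp downstream at copz-1. Where TGACGTG is followed by G, as at copz-1, it overlaps CCACG read on the other strand.
ubc-6 upstream copy: tgtgtgcaattTGACGTGacggtgaacat
ubc-6 downstream copy: ttcttttcagcTGACGTGagacccgaaga
sar-1: gccactttggaCACGTCAgcgctttccgg
copz-1: tcattgactatTGACGTGgattatcttgt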

How the data were processed

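ChIP-seq peak lists of 2 replicates in 1 group were used. By their deposited descriptions, the authors' candidate lists (peaks with background) come from each replicate and from both pooled, with a further file whose role is not described (the labels name a possible control, not used here), and a reproducibility threshold gave the shorter list. The aligner, peak caller and threshold are not given in the sources used here. In the lists, the deposited signal column is the authors' peak value on an unstated scale, and the deposited −log10 q column was constant in the reproducible list. Summits on ce11 were assigned to gene starts of Ensembl release 115 on WBcel235, from 500 bp upstream to 100 bp downstream. All listed coordinates are 1-based. Words were counted on both strands. Of 78 listed gene names in 7 lists, 77 matched. The members and lists were chosen with earlier results of these data known. Besides the 7 members, genes were named if listed with a reproducible peak, if among the 2 highest of a list without one, or if nearest in rank to a member. A listed gene that the counts include is not reported here by name. No test was made, since 1 group offers no comparison. The number of replicates limits precision, and the read depth is unknown. Window assignment was correct for 200 of 200 summits planted at known distances inside or outside the window, and the word search recovered 200 of 200 planted words. Scripts ran in Python 3.11.15 with matplotlib 3.10.9, SciPy 1.17.1 and NumPy 2.4.6. Alternatives changed the window, the overlap rule, the transcript start, the signal threshold and the replicate.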

Additional observations from a re-analysis of the deposited data

How the results depend on the processing

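The same 3 genes, sec-61.G, hsp-3 and xbp-1, had a peak with the narrower and the wider window, with whole intervals and with any transcript start. xbp-1 was lost at a signal at or above the median of the reproducible list (2 genes) and with replicate 2 alone, so that leaving out a replicate gave 2 to 3. Of the 66 other listed genes, 13 had a peak, against 2.39% of all protein-coding genes. The count was 7 when only summits between -250 and +50 bp were taken, against 1.57%. It was 13 without replicate 2, against 2.31%, and 12 without replicate 1, against 2.12%. The wider window gave 15 (against 3.07%), whole intervals 15 (2.69%), any transcript start 13 (2.50%) and the signal threshold 9 (1.33%). The same shares stand beside the counts of the 7 genes. Over the 5 genes with a pooled entry, 27 pairs of gene and word were present in the promoter windows and 12 in the shorter summit stretches, which hold fewer bases. The percentile of ire-1 in its list was 65.0 in the pooled list, 75.2 in replicate 1 and 81.4 in replicate 2. No paired analysis was possible because there is 1 group and no test. The read depth, and with it the error of each signal value, is unknown.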

Other observations

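Genes of the vesicle coats that carry folded proteins out of the endoplasmic reticulum and return escaped ones had a reproducible peak at 3 of 16, where 2.39% of all protein-coding genes had one. Of these 3, sar-1 had none when only summits between -250 and +50 bp were taken. sec-24.1, for the COPII subunit that binds cargo, had a pooled signal of 78.5 (rank 68), with 54.4 in replicate 1 and 22.1 in replicate 2. copz-1, in a window shared with cyn-4, had 44.5 and sar-1 had 44.2. Without a reproducible peak, copb-2 had 19.1, and tfg-1 had 10.6 but no entry in replicate 2.

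Of 4 Hsp70 family genes whose products act outside the endoplasmic reticulum, 2 had a reproducible peak (exact Clopper-Pearson 95% interval 6.76 to 93.2%), where 2.39% of all protein-coding genes had one. hsp-1, for the cytosolic chaperone, had 71.7 (rank 83), with 48.4 in replicate 1 and 21.0 in replicate 2. hsp-110 had 49.6 (rank 211), in a window shared with the proteasome gene rpn-3. hsp-6, for the mitochondrial chaperone, had 24.3 (rank 911) and no reproducible peak. With hsp-3 at 58.4 and hsp-4 without an entry, Hsp70 genes with and without a peak were found both inside and outside the endoplasmic reticulum.

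On the ce10 build the reproducible list held 777 peaks, and those of sec-61.G, hsp-3 and xbp-1 were found there by chromosome and signal value at ranks 26, 137 and 405, the same as on ce11. Because the match used the signal value, like ranks largely follow from it. The replicate 1 and replicate 2 entries of these genes had no match on ce10 by this rule.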
